A study of Mus musculus with 20 samples.

Results

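This report compares the kidney transcriptome of TERT WT/WT mice 18 days after Adriamycin (ADR, doxorubicin) with that of TERT WT/WT mice given saline. The members are the libraries whose labels carry that genotype and one of these 2 treatments, 7 of the 20 in the series, and they were fitted alone, so that no library of another genotype entered the filter or the spread. All genes were considered.

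RNA of whole kidneys was sequenced, with 1 library per mouse. The 3 ADR mice received 1 tail-vein injection of ADR at 12 mg/kg, and the 4 saline mice received saline by the same route. All 7 were females labelled as 2 months of age, and were WT/WT littermates from a TERT knockout line that had been backcrossed to BALB/c, so both alleles of TERT were intact in every mouse of both groups. The study placed this time point in the period when the filtration barrier recovers from the injury, and the comparison asks which transcripts of the kidney differ from those of uninjured mice at that point.

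Podocytes are the epithelial cells that wrap the glomerular capillaries and hold back plasma proteins, and in BALB/c mice ADR injures them, so that protein leaks into the urine. Filtered protein then reaches the proximal tubule, which normally takes it up by megalin and cubilin. Injured tubule cells are known to lose transport genes, to make injury markers such as neutrophil gelatinase-associated lipocalin, and to enter the cell cycle, while leukocytes and matrix-producing fibroblasts gather between the tubules. ADR itself traps topoisomerase II on DNA and damages it, which activates p53 in many cells.

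The 7 libraries held 39323498 to 48222237 counts, with 23695 to 25262 genes detected in each. The library labelled ADR replicate 1 stood apart from the other ADR libraries. On the first principal component of log2 CPM (counts scaled to the size of the library), which held 80.3% of the variance, it scored 0.65, while ADR replicates 2 and 3 scored 73.27 and 70.45 and the saline libraries lay between -40.51 and -30.37. It was the ADR library nearest to saline in 88.2% of the genes called higher and in 82.4% of those called lower, with median differences from the saline mean of 0.61 and -0.41 on the log2 scale. The corresponding medians were 1.46 and -0.91 in ADR replicate 2 and 1.35 and -0.79 in ADR replicate 3. What set this mouse apart is not given in the labels, and results are therefore given also without it. It was singled out by the same values that are tested. Adjusted p from the fit without it therefore describe the other ADR libraries against saline and are not separate evidence of a difference.

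**Figure D1:**
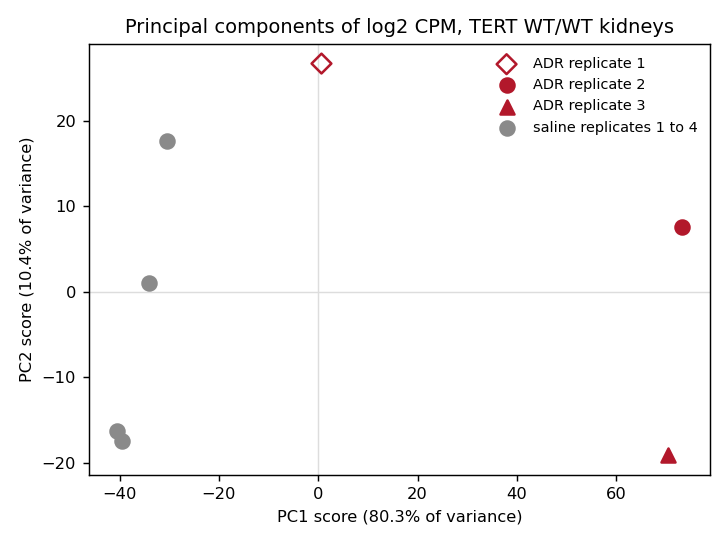
First and second principal component scores of the 7 libraries, from log2(CPM + 0.1) of genes that averaged 1 CPM or more, with 1 point per library. The saline libraries lie on the left, ADR replicates 2 and 3 on the right, and ADR replicate 1 between them at 0.65.

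With all 7 libraries, 2509 of 17788 genes were higher after ADR (14.1%) and 1408 were lower (7.92%), 3917 in all (22%), by edgeR's quasi-likelihood F test at an adjusted p under 0.05. These counts moved with single libraries. Without ADR replicate 1 the test called 4364 of 18420 genes higher and 3984 lower, and without ADR replicate 2 it called 822 and 104 of 18064. Leaving out ADR replicate 3 gave 1221 and 316, and leaving out saline replicate 2, 3 or 4 gave 1358, 1263 or 1257 higher and 335, 225 or 232 lower, while without saline replicate 1 there were 2401 and 1266. A total of 802 genes (4.51%) were called higher in the fit of all 7 and in each fit with 1 library left out, and 95 genes (0.534%) were called lower in all of them. The filter on low counts asked for 0.219 CPM in 3 libraries, and 1119 genes reached it only with the ADR libraries, of which 334 were called higher. A gene near 0 in saline can be tested at all only where it is higher after ADR, so the counts of lists that hold any are given also without them. In the same way 647 genes reached it only with the saline libraries, of which 73 were called lower. Lists with such a call say so. A list whose share of calls is near 14.1% higher or 7.92% lower shows nothing about its members. Counts of a list without ADR replicate 1 are to be read against the far larger share of all genes in that fit (4364 higher and 3984 lower of 18420). Below, a call held in all fits is one of the 802 or 95 above. Rises and falls named are calls at an adjusted p under 0.05, and a log2 fold change is ADR minus saline, given with its standard error (SE).

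**Figure D2:**
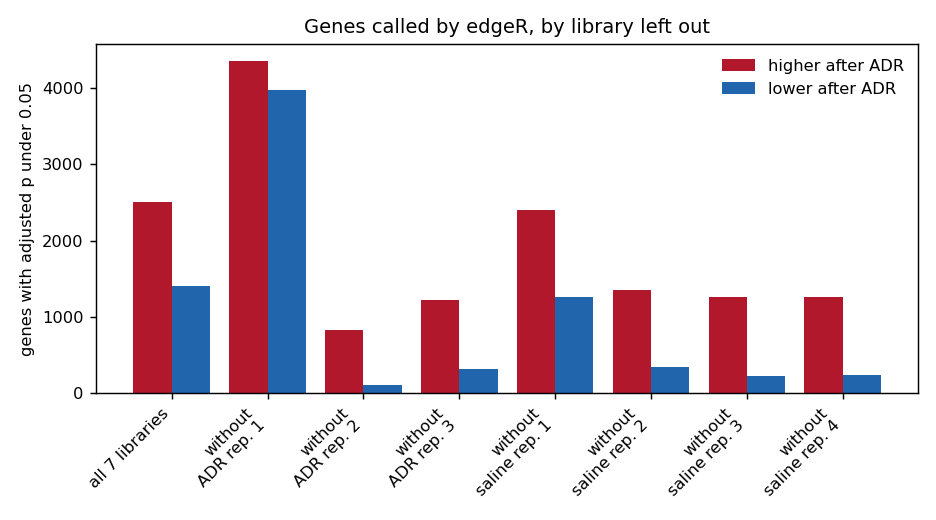
Number of genes called higher (red) and lower (blue) after ADR by edgeR at an adjusted p under 0.05, with all 7 libraries and with each library left out in turn. Calls are most numerous without ADR replicate 1 (4364 and 3984) and fewest without ADR replicate 2 (822 and 104), and the lower calls vary more than the higher ones.

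Genes of mitosis rose as a group. All 26 listed genes were tested, all 26 were called higher, in the fit of all 7 libraries and in each fit with 1 left out, and their log2 fold changes ran from 1.57 to 3.94 with a median of 3.22, against a median of 0.01 over all genes tested. Their mean level lay 2.07, 3.50 and 2.87 log2 units above the saline mean in ADR replicates 1, 2 and 3, and between -0.40 and 0.33 in saline, so ADR replicate 1 was clear of every saline library here. In each of the 26 genes all ADR values lay above all saline values, as they did in 18.5% of the genes tested. Of the 26, 3 passed the filter only with ADR libraries, and the other 23 were all called higher in all fits. Because whole kidneys were sequenced, a change in the share of a cell type and a change in RNA per cell cannot be told apart, for these or for any genes below.

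Mki67, which encodes the proliferation antigen Ki-67, was at 14.8, 41.1 and 31.8 CPM after ADR and at 2.48, 1.44, 3.13 and 4.62 CPM after saline. Top2a, which encodes a topoisomerase of the type that doxorubicin traps, was at 7.85, 22.9 and 15.6 CPM after ADR and at 1.06, 0.729, 1.93 and 1.99 CPM after saline. For Ccnb2, a mitotic cyclin, the values were 4.66, 11.1 and 6.9 CPM after ADR and 0.574, 0.558, 0.675 and 0.876 CPM after saline. The groups did not overlap for any of these genes, and ADR replicate 1 was the lowest of the ADR libraries in each. The log2 fold changes were 3.33 (SE 0.42, adjusted p = 0.00473) for Mki67, 3.44 (SE 0.43, adjusted p = 0.00473) for Top2a and 3.50 (SE 0.32, adjusted p = 0.00372) for Ccnb2. Birc5, an inhibitor of apoptosis that also serves chromosome segregation, and Plk1, a mitotic kinase, rose by 3.57 and 3.14.

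The promoters of such genes are known for 2 short elements, the cell cycle genes homology region (CHR, TTTGAA) and the CCAAT box (CCAAT). They are shown because the listed genes moved together. RefSeq promoters on GRCm38.p6, from 250 bases before to 50 bases after a start, were at hand for 21 of the 26 genes. On either strand, 16 of the 21 (76.2%) held TTTGAA, against 20.2% of 27025 genes with a promoter, and 18 (85.7%) held CCAAT, against 41.1%. These matches are a description of the sequence, not evidence of binding. Their excess over all genes comes with the choice of genes known for these elements. In the stretches that follow, which end at the base before the start, capitals mark TTTGAA and CCAAT on either strand. They cover chr7:135716380-135716579 for Mki67, chr11:99024190-99024429 for Top2a and chr9:70421555-70421754 for Ccnb2, all on the minus strand and written 5′ to 3′.
Mki67: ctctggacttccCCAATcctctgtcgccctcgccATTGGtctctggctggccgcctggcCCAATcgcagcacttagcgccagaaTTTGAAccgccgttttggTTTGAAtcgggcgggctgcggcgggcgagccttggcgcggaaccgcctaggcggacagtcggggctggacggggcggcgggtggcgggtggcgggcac
Top2a: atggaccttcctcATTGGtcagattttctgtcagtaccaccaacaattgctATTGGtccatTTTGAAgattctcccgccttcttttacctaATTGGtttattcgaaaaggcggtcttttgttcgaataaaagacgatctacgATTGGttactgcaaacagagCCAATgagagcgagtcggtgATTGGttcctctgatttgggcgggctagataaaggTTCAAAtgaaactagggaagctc
Ccnb2: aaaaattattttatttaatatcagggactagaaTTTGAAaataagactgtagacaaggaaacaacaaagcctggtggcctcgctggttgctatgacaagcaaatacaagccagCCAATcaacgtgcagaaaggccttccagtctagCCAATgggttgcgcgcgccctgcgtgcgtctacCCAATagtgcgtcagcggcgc

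Genes of S phase also rose. Of 19 tested, 16 were called higher and none lower, 11 of them in all fits, and the median log2 fold change was 1.03. Mcm6, a subunit of the replicative helicase, was at 6.39, 9.79 and 10.8 CPM after ADR and at 1.9, 1.52, 1.57 and 2.12 CPM after saline, a log2 fold change of 2.34 (SE 0.22, adjusted p = 0.00372). Uhrf1, which maintains DNA methylation at replication, rose by 2.91. The sliding clamp gene Pcna differed less, at 26.3, 38.3 and 35.2 CPM against 23.4 to 24.7 CPM, and its call (log2 fold change 0.48, adjusted p = 0.0336) held only in the fit without ADR replicate 1, with adjusted p of 0.0591 to 0.151 in the others.

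Among 24 p53 targets, 12 rose and 1 fell, 6 of the rises in all fits, with a median log2 fold change of 0.66. Without 1 that passed the filter only with ADR libraries, 11 of 23 rose, 5 in all fits. Cdkn1a, which encodes the cell cycle inhibitor p21, was at 22.3, 82.6 and 101 CPM after ADR and at 8.44, 7.1, 7.54 and 6.23 CPM after saline, a log2 fold change of 3.23 (SE 0.43, adjusted p = 0.00473). Phlda3, a repressor of Akt, rose by 1.90 and Psrc1, which also serves the mitotic spindle, by 4.05, both in all fits. Mdm2, the ubiquitin ligase that restrains p53, was at 34.7, 40.6 and 43.1 CPM after ADR and at 33.3 to 34.1 CPM after saline. The ADR values lay above every saline value, but the difference did not pass the test (log2 fold change 0.22, SE 0.10, adjusted p = 0.135), and without ADR replicate 1 it did (0.30, adjusted p = 0.0245). Ei24 was the one member that fell, by 0.37, a call that held in 2 of the 7 fits with 1 library left out. Of the cyclin-dependent kinase inhibitors, Cdkn3, which is expressed in mitosis, rose by 3.20 in all fits, while Cdkn2c (0.47) and Cdkn2d (0.51) held only without ADR replicate 1 and, for Cdkn2d, without saline replicate 1. Cdkn2a had too few counts to be tested.

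**Figure D3:**
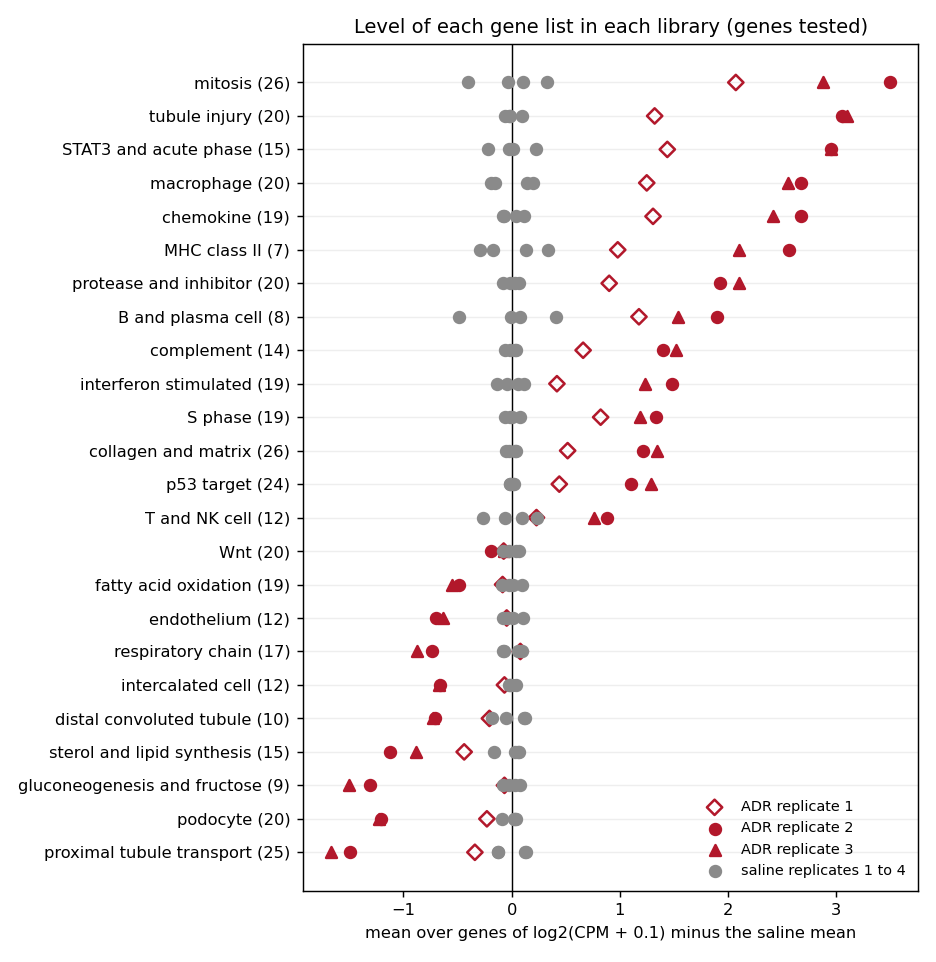
Mean over the tested genes of each list (number in brackets) of log2(CPM + 0.1), minus the saline mean, with 1 point per library. In the lists at the top the open diamond of ADR replicate 1 lies between saline and the other ADR libraries (2.07 for mitosis), and in several lists at the bottom, such as gluconeogenesis and fructose (-0.07), it lies among the saline libraries.

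Markers of tubule injury were high after ADR. Of 20 tested, 19 were called higher and none lower, 16 in all fits, with a median log2 fold change of 2.52. Without 1 that passed the filter only with ADR libraries, 18 of 19 rose, 15 in all fits. Lcn2, which encodes neutrophil gelatinase-associated lipocalin, was at 96.7, 803 and 963 CPM after ADR and at 5.74, 8.15, 6.64 and 3.93 CPM after saline, a log2 fold change of 6.66 (SE 0.73, adjusted p = 0.00429). Havcr1, which encodes kidney injury molecule 1, was at 265, 713 and 628 CPM after ADR and at 132, 125, 202 and 244 CPM after saline. Its lowest ADR value was thus close to the highest saline value. It rose by 1.61 (SE 0.36, adjusted p = 0.0168), a call lost without ADR replicate 2 (adjusted p = 0.077), ADR replicate 3 (0.0563) or saline replicate 2 (0.0545). The fibrinogen chains Fga and Fgg, which injured tubules also make, rose by 2.53 and 2.92 with the ADR values close together, at 56.7, 80.6 and 101 CPM for Fga against 11.7 to 17.3 CPM in saline. Krt20, an intermediate filament of injured epithelium, was at 4.56 CPM in ADR replicate 1 and at 62 and 58.6 CPM in the others, against 0.135 to 0.596 CPM in saline, a log2 fold change of 6.94.

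Podocyte genes were lower after ADR, by far more in ADR replicates 2 and 3 than in ADR replicate 1. The level of the 20 listed genes was -0.23, -1.21 and -1.23 log2 units from the saline mean in ADR replicates 1, 2 and 3, and from -0.09 to 0.04 in saline. Nphs1, which encodes nephrin of the slit diaphragm, was at 31.7, 3.89 and 2.9 CPM after ADR and at 38.5, 32.6, 29.5 and 32.5 CPM after saline. In ADR replicate 1 nephrin therefore lay inside the saline range, while the other ADR libraries lay far below it. It did not pass the test with all 7 libraries, at a log2 fold change of -1.38 (SE 0.72, adjusted p = 0.186). Without ADR replicate 1 the change was -3.31 (SE 0.17, adjusted p = 4.63e-07).

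Of the 20 podocyte genes, 8 were called lower and none higher with all 7 libraries, 15 were lower and 1 higher without ADR replicate 1, and 1 was lower without ADR replicate 2. The median log2 fold change was -0.83. Thsd7a, a podocyte surface protein, was at 9.55, 7.57 and 9.68 CPM after ADR and at 15.2, 14.2, 17.7 and 17.7 CPM after saline, and its fall of 0.86 on the log2 scale (SE 0.14, adjusted p = 0.00674) was the only one held in all fits. Synpo, which encodes an actin-associated protein of foot processes, was at 78.5, 41.9 and 46.6 CPM against 98 to 111 CPM, and fell by 0.87 (adjusted p = 0.0217). That call held only without ADR replicate 1 or saline replicate 1, with adjusted p of 0.0557 to 0.0852 in the other fits. Magi2, a scaffold of the slit diaphragm, fell by 0.79 and lost its call only without ADR replicate 2 (adjusted p = 0.058).

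Among 10 genes of the glomerular basement membrane, 2 rose and 1 fell, shares near those over all genes tested (14.1% and 7.92%), so that the values that follow are of single genes. Col4a3, a collagen chain that podocytes make, fell by 0.67 (189, 116 and 127 CPM after ADR, 201 to 252 CPM after saline), with a call that held only without ADR replicate 1. Lama5, a laminin chain found in tubule and vessel membranes as well, rose by 0.98, and Agrn, a heparan sulfate proteoglycan, also by 0.98. Lama5 lost its call only without ADR replicate 2 (adjusted p = 0.0608), and Agrn without ADR replicate 2 or 3 or saline replicate 2, 3 or 4 (adjusted p of 0.0547 to 0.0867). Among 7 genes of parietal epithelium, the cells that line the capsule around the glomerulus, 4 rose, 1 of them in all fits, and none fell. That 1 was Cd24a, also expressed by injured tubules and leukocytes, at 281, 630.4 and 633 CPM after ADR and 165 to 208 CPM after saline (log2 fold change 1.44, adjusted p = 0.0099). Cldn1, a tight junction gene of these cells, was at 32, 130.2 and 141 CPM after ADR and 24.5 to 31.8 CPM after saline. It rose by 1.88, a call lost without ADR replicate 2 (adjusted p = 0.0728), ADR replicate 3 (0.0579), saline replicate 2 (0.0537) or saline replicate 3 (0.0544). Pax2, a transcription factor of the same cells and of collecting ducts, was at 99.7, 102 and 100.3 CPM after ADR and 75.2 to 99.3 CPM after saline, and did not pass (log2 fold change 0.18, adjusted p = 0.279).

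**Figure D4:**
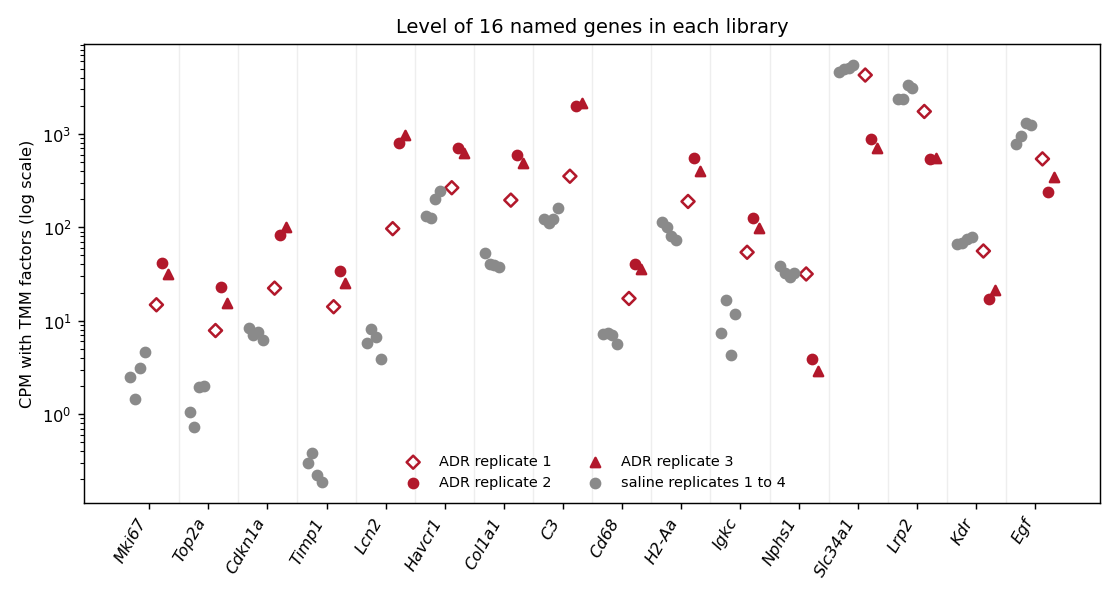
CPM with TMM factors of 16 named genes on a log axis, with 1 point per library, saline in grey and ADR in red. For Nphs1, Slc34a1 and Kdr the open diamond of ADR replicate 1 lies near the saline points while ADR replicates 2 and 3 lie well below, and for Timp1, Lcn2 and Mki67 it lies well above saline.

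Transport genes of the proximal tubule were lower after ADR. Of 25 tested, 12 were called lower and none higher, with a median log2 fold change of -1.01, and the list lay -0.34, -1.50 and -1.67 log2 units from the saline mean in ADR replicates 1, 2 and 3. Of the 12, 1 passed the filter only with saline libraries. Without ADR replicate 1, 24 were lower and 1 was higher, and without ADR replicate 2, ADR replicate 3, saline replicate 3 or saline replicate 4 only 1 was lower in each case. Slc34a1, the phosphate transporter of the brush border, was at 4272, 873 and 713 CPM after ADR and at 4616, 5000.2, 5063 and 5493 CPM after saline. It did not pass (log2 fold change -1.37, SE 0.58, adjusted p = 0.117), and without ADR replicate 1 it did (-2.68, SE 0.16, adjusted p = 1.08e-06). Lrp2, which encodes megalin, was at 1740.4, 542 and 557 CPM after ADR and at 2340.3, 2395, 3362 and 3124 CPM after saline. It fell by 1.57 (SE 0.43, adjusted p = 0.0338), and the adjusted p rose to 0.0689 to 0.126 without ADR replicate 2 or 3 or saline replicate 2, 3 or 4. The fall of Slc5a8, a monocarboxylate transporter, held in all fits, at 46, 27.1 and 33.6 CPM after ADR and 62.7 to 84.3 CPM after saline (log2 fold change -1.08, SE 0.19, adjusted p = 0.00867).

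The metabolic genes that proximal tubules use for fuel showed the same division between the ADR libraries, while the mean level of the glycolysis list did not. None of 9 genes of gluconeogenesis and fructose use passed, although their median was -0.82. Their level was -0.07, -1.31 and -1.50 log2 units from the saline mean in ADR replicates 1, 2 and 3, and without ADR replicate 1, 8 were lower and 1 was higher. Fbp1, which encodes fructose bisphosphatase, was at 864, 267 and 221 CPM after ADR and 976 to 1107 CPM after saline (log2 fold change -1.22, SE 0.44, adjusted p = 0.0747, and -2.11, adjusted p = 1.49e-06, without ADR replicate 1). Of 19 genes of fatty acid oxidation 3 fell and 1 rose, with a median of -0.46, and without ADR replicate 1, 14 were lower. Ehhadh, a peroxisomal enzyme of the pathway, fell by 1.23 (354, 209 and 209 CPM after ADR, 518 to 751 CPM after saline), a call lost only without ADR replicate 2 (adjusted p = 0.0556). The rise was that of Pdk4, which restrains the use of pyruvate, at 11.6, 81.7 and 50.2 CPM against 4.79 to 8.14 CPM, and it held in all fits (log2 fold change 2.90, adjusted p = 0.00892). Of 17 nuclear genes of the respiratory chain 1 fell, a share near the 7.92% over all genes tested. It was Ndufs1 of complex I, by 0.74, a call that held only without ADR replicate 1. In that fit 16 of the list were lower, where 3984 of all 18420 genes were. In glycolysis, 1 of 15 rose and 2 fell, beside 14.1% and 7.92% of all genes tested, so that nothing is read from these counts. The level of that list was 0.134, 0.085 and 0.099 log2 units from the saline mean in ADR replicates 1, 2 and 3, but its members moved both ways. Without ADR replicate 1, 2 of them were higher and 3 lower. In that fit Pgam1 and Pgk1, enzymes of the pathway, had log2 fold changes of -0.99 and -0.65 (adjusted p = 0.000141 and 0.00112). Hk2, an inducible hexokinase, rose by 2.69 in all fits (1.92, 5.55 and 5.86 CPM after ADR, 0.517 to 0.895 CPM after saline).

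In later segments of the nephron some genes fell, where 7.92% of all genes tested did. In the thick ascending limb 4 of 12 genes fell and none rose, and Egf, the epidermal growth factor that this segment makes, was at 540.5, 239 and 347 CPM after ADR and at 774, 941, 1311 and 1244 CPM after saline. It fell by 1.51 (SE 0.31, adjusted p = 0.0134), with an adjusted p of 0.0529 without ADR replicate 2. Umod, which encodes uromodulin of the same cells, was at 3057, 4178 and 4783 CPM after ADR and 2474 to 4286 CPM after saline, so the groups overlapped and it did not pass (log2 fold change 0.23, SE 0.25, adjusted p = 0.525). In the distal convoluted tubule 3 of 10 fell, among them the thiazide-sensitive cotransporter Slc12a3, by 0.60, a call that held only without ADR replicate 1. In intercalated cells 3 of 12 fell, among them Foxi1, their transcription factor, by 0.48. It was at 53.1 ± 5.05 CPM after ADR (SD, n = 3) and 74 ± 4.55 CPM after saline (SD, n = 4), with adjusted p of 0.0522 to 0.0806 without ADR replicate 2 or saline replicate 2, 3 or 4. None of 11 principal cell genes passed with all 7 libraries, and 5 were lower without ADR replicate 1. Aqp4, a water channel of these cells and of the proximal tubule, had a log2 fold change of -1.13 (SE 0.37, adjusted p = 0.0598).

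Kidney hormones were among the genes that differed. Kl, which encodes the phosphate-regulating coreceptor Klotho, was at 415, 173 and 194 CPM after ADR and at 468, 626, 837 and 701 CPM after saline, and fell by 1.34 (SE 0.34, adjusted p = 0.0252). Ren1, which encodes renin, was at 140.2, 52.7 and 52 CPM after ADR and at 209.8, 228, 174 and 286 CPM after saline, and fell by 1.46 (SE 0.36, adjusted p = 0.0249). In both genes every ADR value lay below every saline value, yet both calls were lost without ADR replicate 2 or 3 or saline replicate 2, 3 or 4, with adjusted p of 0.0504 to 0.102. Agt, which encodes the substrate of renin, moved the other way, from 3.99 to 4.83 CPM in saline to 12.9, 47.1 and 47.3 CPM after ADR, a rise of 3.02 held in all fits. Cyp24a1 and Cyp27b1, which degrade and make active vitamin D, rose by 2.24 and 1.69. Cyp27b1 was at 5.3 CPM in ADR replicate 1, inside the saline range of 3.67 to 6.87 CPM, and its call held only without that library (adjusted p = 1.26e-05), with 0.0572 to 0.118 in the other fits. The call of Cyp24a1 was lost without ADR replicate 2 (adjusted p = 0.118), ADR replicate 3 (0.061), saline replicate 3 (0.0615) or saline replicate 4 (0.0796).

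Matrix genes rose together. Of 26 collagen and matrix genes, 20 were called higher and none lower, 11 in all fits, with a median log2 fold change of 0.96. Without ADR replicate 1, 23 were higher and 1 lower, and without ADR replicate 2, 11 were higher. Col1a1, a chain of fibrillar collagen type I, was at 195, 589.7 and 486 CPM after ADR and at 52.9, 40.6, 39.3 and 37.6 CPM after saline. Col3a1, the chain of type III, was at 92.4, 189 and 191 CPM after ADR and at 32.7, 29.1, 31.9 and 30.9 CPM after saline. ADR replicate 1 was the lowest ADR library in both and still above every saline value. The log2 fold changes were 3.31 (SE 0.34, adjusted p = 0.00379) and 2.34 (SE 0.23, adjusted p = 0.00379).

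Markers of the cells that make matrix were listed apart. Of 14 fibroblast and pericyte genes 4 rose and 1 fell, with a median log2 fold change of 0.32. Without 1 that passed the filter only with ADR libraries, 4 of 13 rose and 1 fell. Pdgfra, a receptor of interstitial fibroblasts, was at 25.1, 17.5 and 26.7 CPM after ADR and 28.1 to 37.9 CPM after saline and did not pass (log2 fold change -0.49, adjusted p = 0.0645). Tagln, of contractile cells, rose by 1.05 in all fits, and Itga8, an integrin of mesangial cells and pericytes, fell by 1.28, with adjusted p of 0.0653 and 0.0534 without ADR replicates 2 and 3. Of 14 genes of mesenchymal transition 6 rose and 1 fell. Vim, which encodes vimentin, rose by 1.61 in all fits, and Snai2, a transcription factor of the transition, fell by 0.85 (2.96, 2.54 and 3.53 CPM after ADR, 4.4 to 6.28 CPM after saline). The call of Snai2 was lost without ADR replicate 2 or saline replicate 2, 3 or 4, with adjusted p of 0.0525 to 0.0813.

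Among 20 proteases and their inhibitors 12 rose and 2 fell, 9 of the rises in all fits. Without 2 that passed the filter only with ADR libraries, Timp1 and Mmp7, 10 of 18 rose, 7 in all fits. Timp1, which encodes a metalloproteinase inhibitor, had the smallest p of all genes. It was at 14.1, 34.1 and 25.1 CPM after ADR and at 0.298, 0.386, 0.225 and 0.186 CPM after saline, a log2 fold change of 6.45 (SE 0.36, adjusted p = 0.000501). Timp3, another such inhibitor, moved the other way, at 1514, 761 and 992 CPM after ADR and 1612 to 2601 CPM after saline, and fell by 0.99 (adjusted p = 0.0356), a call lost without ADR replicate 2 or 3 or saline replicate 2, 3 or 4 (adjusted p of 0.083 to 0.138). Mmp7, a metalloproteinase of injured epithelium, rose by 6.03 in all fits. Of 18 ligands and targets of TGF-beta and BMP signalling 6 rose and 1 fell, with a median of 0.33. Tgfb1 rose by 1.02 (52.4, 84.9 and 83.8 CPM after ADR, 33.6 to 39.4 CPM after saline) and Ltbp2, a matrix protein of the family that binds latent TGF-beta, by 4.12, both in all fits. Bmp7, a ligand of nephron epithelium, fell by 0.83, with adjusted p of 0.0616 to 0.106 without ADR replicate 2 or 3 or saline replicate 2, 3 or 4.

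Endothelial genes were lower in the same 2 ADR libraries as podocyte genes. The list was at -0.05, -0.70 and -0.63 log2 units from the saline mean in ADR replicates 1, 2 and 3, and from -0.08 to 0.11 in saline. Of 12 genes 4 fell and none rose, none of them in all fits, and without ADR replicate 1, 10 fell. Kdr, the main receptor for vascular endothelial growth factor, was at 55.8, 17.1 and 21.2 CPM after ADR and at 66.7, 68.7, 75.2 and 79.6 CPM after saline. It fell by 1.21 (SE 0.36, adjusted p = 0.0441), a call that held only without ADR replicate 1, where the change was -1.93. Pecam1, a general endothelial marker, had a log2 fold change of -0.30 (SE 0.11, adjusted p = 0.0821) and did not pass.

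Genes of macrophages rose. Of 20 tested, 19 were called higher and none lower, 18 in all fits, with a median log2 fold change of 2.32. Cd68, a lysosomal protein of macrophages, was at 17.3, 40.7 and 35.6 CPM after ADR and at 7.27, 7.31, 7.06 and 5.65 CPM after saline, a log2 fold change of 2.19 (SE 0.26, adjusted p = 0.00466). Itgam, an integrin of recruited myeloid cells, rose by 4.12 (3.65, 12.1 and 11.6 CPM against 0.292 to 0.803 CPM), while Adgre1, which encodes F4/80 of resident macrophages, rose by 1.28 (5.45, 8.9 and 10.2 CPM against 2.81 to 3.97 CPM). Both groups were separate in both genes. The call of Adgre1 was lost without ADR replicate 2 (adjusted p = 0.0504). Csf1r, the receptor by which macrophages are maintained, was the 1 gene of the list that did not pass (log2 fold change -0.05, SE 0.12, adjusted p = 0.763). It was chosen for mention after its values were seen. All 7 tested genes of antigen presentation on MHC class II rose, 6 in all fits, with H2-Aa at 189, 549 and 397 CPM after ADR and 73.1 to 114 CPM after saline (log2 fold change 2.04, SE 0.32, adjusted p = 0.00641). H2 genes are close copies of each other, and reads shared between them may have been split.

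Other leukocytes were listed by type. Of 15 T and NK cell genes 12 had enough counts to be tested, and 3 rose and none fell, none of them in all fits. Of the 12, 2 passed the filter only with ADR libraries, and neither was called. Cd3e, of the T cell receptor, was at 0.419, 1.47 and 1.43 CPM after ADR and 0.478 to 0.803 CPM after saline (log2 fold change 0.81, adjusted p = 0.192). Cd3g, of the same complex, rose by 2.16, a call lost without ADR replicate 2 (adjusted p = 0.0529). Of 10 neutrophil genes 4 could be tested, and no count is read from so few. S100a8 and S100a9, the calprotectin genes, were highest in ADR replicate 1, at 1.21 and 2.27 CPM, and neither call held without it (adjusted p = 0.0524 and 0.0798). S100a8, which passed the filter only with ADR libraries, kept its call only without saline replicate 2. S100a9 kept its call in none of the fits with 1 library left out. Of 10 B and plasma cell genes 8 could be tested, and 4 rose and none fell, 3 in all fits. Those 3 were genes of antibody-secreting cells. Igkc was at 54, 125 and 98.9 CPM after ADR and 4.27 to 16.5 CPM after saline, and rose by 3.21, while Igha rose by 3.80 and Jchain, which joins antibody units, by 3.01. Cd79a, of B cells before that stage, did not pass (log2 fold change 0.53, adjusted p = 0.355).

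**Figure D5:**
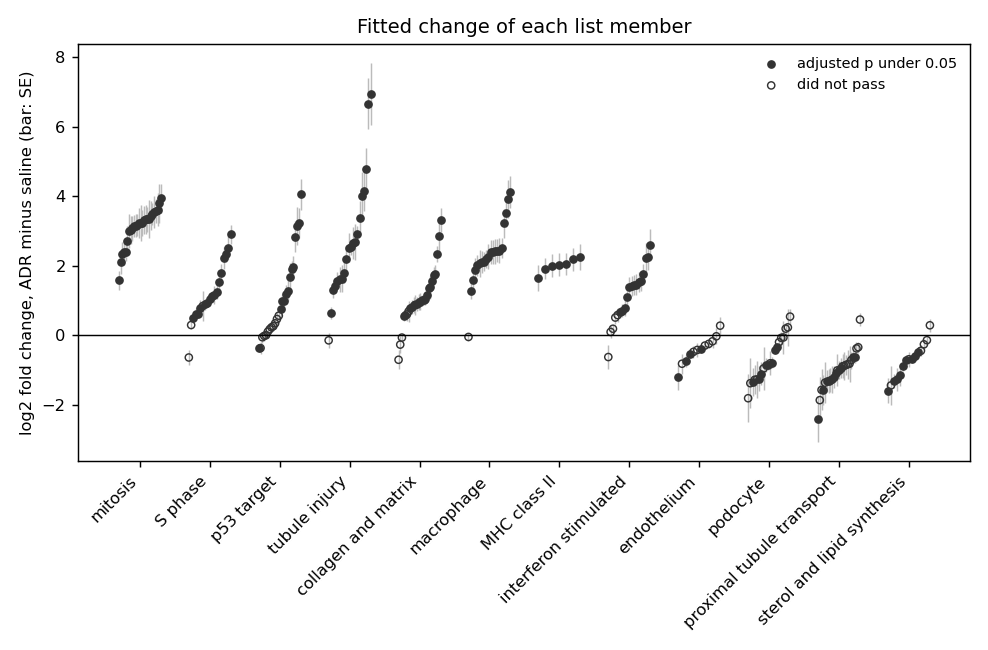
Fitted log2 fold change, ADR minus saline, of every tested gene of 12 lists, sorted within each list, with bars of 1 SE. Filled points passed edgeR's test at an adjusted p under 0.05. All 26 mitosis genes and all 7 MHC class II genes are filled, while in the podocyte (8 of 20) and proximal tubule (12 of 25) lists many large negative changes are open.

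Secreted signals rose with the leukocyte genes. Of 19 chemokines tested 13 rose and 1 fell, 10 of the rises in all fits. Without 6 that passed the filter only with ADR libraries, 8 of 13 rose and 1 fell, 6 of the rises in all fits. Ccl2, which draws monocytes, was at 6.02, 58.1 and 44.5 CPM after ADR and 1.03 to 1.88 CPM after saline, a log2 fold change of 4.67 (SE 0.65, adjusted p = 0.0051). Cxcl1, which draws neutrophils, rose by 5.71. Cxcl12, a chemokine of podocytes and stroma, fell by 1.05 (154, 62.1 and 83.4 CPM after ADR, 177 to 225 CPM after saline), with adjusted p of 0.0739 to 0.0971 without ADR replicate 2 or 3 or saline replicate 2, 3 or 4. Of 14 complement genes 11 rose and 1 fell. C3, the central component, was at 352, 1983 and 2159.8 CPM after ADR and at 122, 111, 123 and 162 CPM after saline, a rise of 3.53 (SE 0.52, adjusted p = 0.00562), and C4b rose by 2.28, both in all fits. Cfb, of the alternative pathway, fell by 1.15. Its groups overlapped, at 2.47, 1.14 and 2.11 CPM against 2.45 to 5.65 CPM, and its call held only without ADR replicate 1 or saline replicate 1, with adjusted p of 0.0859 to 0.163 otherwise. Among 15 genes of STAT3 signalling and the acute phase 13 rose and none fell, 12 in all fits. Without 4 that passed the filter only with ADR libraries, Saa1 and Saa2 among them, 9 of 11 rose, 8 in all fits. Socs3, the feedback inhibitor of the pathway, was at 14.3, 48.9 and 55 CPM after ADR and 2.97 to 4.12 CPM after saline (log2 fold change 3.48, adjusted p = 0.00451), and Lrg1, an acute-phase glycoprotein, rose by 3.47.

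Interferon-stimulated genes rose as well, 14 of 19 with none lower and a median log2 fold change of 1.39. Only 4 of these calls held in all fits, and without ADR replicate 2 there were 4. The level of the list was 0.42, 1.48 and 1.23 log2 units above the saline mean in ADR replicates 1, 2 and 3. Oasl1 was at 5.95, 20.7 and 16.9 CPM after ADR and 2.66 to 3.45 CPM after saline (log2 fold change 2.24, adjusted p = 0.00651), and Irf7, the transcription factor that amplifies the response, rose by 1.75. Isg15 (1.45), a ubiquitin-like modifier, and Ifit1 (1.39), which binds viral RNA, lost their calls without ADR replicate 2, at adjusted p of 0.0544 and 0.0598, and Gbp2 (1.55), a guanylate-binding protein, did not.

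Promoters of such genes are known for the interferon-stimulated response element, searched here on both strands as 2 copies of GAAA with 2 bases of any kind between them. It was found in 8 of the 14 listed genes with a RefSeq promoter (57.1%), against 3.99% of all 27025 genes. It was not found in the windows of Irf7 or Oasl1. The stretches below carry it in capitals, at chr19:34640689-34640888 (plus strand) for Ifit1, chr4:156200819-156201018 (minus strand) for Isg15 and chr3:142620463-142620662 (plus strand) for Gbp2, all on GRCm38.p6, and overlapping matches run together in Isg15. They are shown as examples of a list that moved together. The matches are a description of the sequence, not evidence of binding. Their excess over all genes comes with the choice of genes known for the element.
Ifit1: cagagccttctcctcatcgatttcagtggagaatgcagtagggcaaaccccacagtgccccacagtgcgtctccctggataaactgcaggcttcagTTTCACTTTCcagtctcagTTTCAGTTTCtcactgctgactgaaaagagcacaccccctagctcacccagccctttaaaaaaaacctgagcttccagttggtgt
Isg15: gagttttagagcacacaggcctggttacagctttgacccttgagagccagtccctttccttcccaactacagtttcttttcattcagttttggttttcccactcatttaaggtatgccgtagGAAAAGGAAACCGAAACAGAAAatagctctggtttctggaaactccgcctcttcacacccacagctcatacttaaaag
Gbp2: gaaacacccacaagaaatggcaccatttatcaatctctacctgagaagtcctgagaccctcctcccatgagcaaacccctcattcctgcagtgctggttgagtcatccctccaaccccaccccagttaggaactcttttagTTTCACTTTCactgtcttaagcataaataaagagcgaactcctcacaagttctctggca

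Genes of sterol and lipid synthesis fell, and of the 45 lists this was the one in which ADR replicate 1 lay furthest below saline. Of 15 genes 9 fell and none rose, 3 in all fits, with a median log2 fold change of -0.70. The list lay -0.44, -1.13 and -0.88 log2 units from the saline mean in ADR replicates 1, 2 and 3, and from -0.16 to 0.07 in saline. Srebf2, the transcription factor of sterol synthesis, was at 90.7, 72.9 and 89.6 CPM after ADR and at 121, 138, 140.5 and 143 CPM after saline. Every ADR value lay below every saline value, with ADR replicate 1 as near to saline as ADR replicate 3. It fell by 0.68 (SE 0.12, adjusted p = 0.00932), in all fits.

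The lists of Wnt, Notch and Hedgehog genes had calls in both directions. For Wnt and Notch the shares higher were near the 14.1% over all genes tested, and what follows is of single genes. Of 20 Wnt genes 3 rose and 4 fell, with a median of -0.19. Wnt4, a ligand of tubule epithelium and stroma, was at 10.8, 10.0 and 11.2 CPM after ADR and 4.54 to 6.84 CPM after saline, and rose by 0.90 in all fits, so that here ADR replicate 1 was as high as the others. Nkd2, an inhibitor of the pathway, rose by 1.74 in all fits, and Axin2, its common target, had a log2 fold change of -0.11 (adjusted p = 0.671). Of 16 Notch genes 2 rose and 2 fell, of 10 Hedgehog genes 2 rose and 3 fell, and none of these calls held in all fits. Of the 3 Hedgehog falls 1 passed the filter only with saline libraries. In the Hedgehog list Gli1, the transcriptional target, rose by 0.99 while the receptor Ptch1 fell by 0.68. Both calls held only without ADR replicate 1 or saline replicate 1. Of 16 targets and ligands of ERK and EGF receptor signalling 7 rose and none fell. Without Fosl1, which passed the filter only with ADR libraries, 6 of 15 rose, 3 in all fits. Fosl1, a component of AP-1, went from 0.0229 to 0.0675 CPM in saline to 1.33, 10.4 and 7.4 CPM after ADR. Etv4, a transcription factor, rose by 2.07 in all fits. Dusp6, the common feedback phosphatase, had a log2 fold change of 0.30 (adjusted p = 0.304).

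Tert, whose product is the catalytic subunit, was at 4.05, 4.54 and 6.55 CPM after ADR and at 3.99, 4.01, 3.26 and 3.24 CPM after saline. The lowest ADR value was close to the highest saline value, and the difference did not pass (log2 fold change 0.48, SE 0.21, adjusted p = 0.12). Without ADR replicate 1 it did (0.61, SE 0.19, adjusted p = 0.0243). Of 15 genes of telomerase and shelterin, the complex that caps telomeres, 2 rose and none fell, a share near the 14.1% over all genes tested, and neither call held in all fits. They were Gar1 (0.60) and Nhp2 (0.37), which belong to the particle that binds the telomerase RNA and also serve ribosome synthesis, and their calls held only without ADR replicate 1 or saline replicate 1.

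Genes of stress and drug handling were mixed. Of 16 antioxidant and iron genes 5 rose and none fell, although the median of the list was -0.23. Mt2, a metallothionein, was at 71.3, 308 and 317 CPM after ADR and 24.7 to 47.3 CPM after saline, and rose by 2.70 in all fits. Hmox1, which degrades haem, was at 18, 130.4 and 48.2 CPM after ADR and 16.5 to 22.9 CPM after saline, so that ADR replicate 1 lay inside the saline range, and its rise of 1.76 held only without that library. Of 13 genes of the unfolded protein response 3 rose, among them Atf3 (3.56) and Asns (1.56), which amino acid shortage also induces, both in all fits. The chaperone Hspa5 had a log2 fold change of -0.49 (adjusted p = 0.0574). Of 9 genes that carry or reduce doxorubicin 1 rose and 1 fell, shares near those over all genes tested (14.1% and 7.92%). They were Cbr3, a carbonyl reductase (0.87), and Abcg2, an efflux pump (-0.82). Both lost their calls without ADR replicate 2 or 3 or saline replicate 2, 3 or 4. Of 15 clock genes only Nr1d1 passed, at -0.62, a share near the 7.92% over all genes tested. Among the fits with a library left out it was called again only without ADR replicate 1. In that fit 8 of the 15 were lower and 1 higher, where 3984 of all 18420 genes were lower and 4364 higher.

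Some of the largest rises were of genes with few or no counts in saline. Il1f6, a cytokine of the interleukin 1 family, had 1 count in all 4 saline libraries together and 955 in the ADR libraries, at 0.962, 10.0 and 8.42 CPM, a ratio of 1160 with a 95% counting interval of 209 to 46100. Saa1, an acute-phase protein, had 2 and 347 counts, a ratio of 212 (58.1 to 1750). These intervals are exact and cover counting error only, and reads from the near-identical Saa2 may have been split with Saa1. Of the called genes with no count in any saline library, the 5 with the most counts are given here. Against a floor of 3 counts per library Crct1 was at least 19-fold higher after ADR, Saa2 at least 10.1-fold, Mmp10 at least 8.06-fold, Vgf at least 6.67-fold and Mmp27 at least 4.98-fold. Mmp10, a secreted metalloproteinase, was at 0.518, 0.606 and 0.57 CPM, so its level in ADR replicate 1 was close to that in the others.

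Of the 15 largest falls among called genes that averaged 1 CPM or more and whose groups did not overlap, 3 held in all fits. Slc22a27 was at 1.75, 0.466 and 0.311 CPM after ADR and at 6.42, 5.15, 7.47 and 7.27 CPM after saline, a log2 fold change of -3.00 (SE 0.52, adjusted p = 0.00841), and Slc22a26 fell by 2.66. These anion transporter genes are close copies of each other and reads may have been split between them. Rnf24, which encodes a ring finger protein, was at 44.7, 15.7 and 18.5 CPM after ADR and at 114, 95.7, 242 and 166 CPM after saline, and fell by 2.56 (SE 0.45, adjusted p = 0.00867). In all 15 every ADR value lay below every saline value, since this was required of them. Gatm, another of the 15, which makes the precursor of creatine, was at 652, 145 and 133 CPM after ADR and at 748, 1149.7, 1324 and 1502 CPM after saline. It fell by 1.93 (SE 0.57, adjusted p = 0.0425), which held only without ADR replicate 1, where the change was -3.10.

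Markers of tissues other than kidney were also looked at. Of 13 listed, 7 had enough counts to be tested. Those of fat and muscle did not, nor did Cyp11b1 and Cyp21a1 of the adrenal gland. Star, also an adrenal marker, was tested and not called. Genes of red cells and their precursors rose, with Hba-a1 at 864, 1175 and 1817 CPM after ADR and 239 to 488 CPM after saline (log2 fold change 1.93, SE 0.32, adjusted p = 0.00677), Hbb-bs by 1.83 and Alas2, the haem synthesis enzyme of erythroid cells, by 2.17, all in all fits. All 3 red cell genes were higher in each ADR library than in each saline library, and their part in the leukocyte results was not tested. Alb, the liver's serum albumin, was at 11.2, 3.68 and 3.51 CPM after ADR and 14 to 18.9 CPM after saline, and fell by 1.41, a call that held only without ADR replicate 1.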

How the data were processed

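Total RNA of whole kidneys was sequenced as paired-end reads. The values used are the raw counts per gene that the authors deposited, made by trimming reads with Trimmomatic and aligning them with STAR to mm10. The counting tool, annotation release and strand setting are not given in the sources used here. The members and the gene lists were chosen with earlier results of these data known.

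Of 55471 gene identifiers, 55230 were matched to GENCODE M21 by identifier without its version. The 7 libraries were normalized by TMM, genes were kept by filterByExpr, and a robust quasi-likelihood F test was run in edgeR 4.0.16 (R 4.3.3) with Benjamini-Hochberg adjustment over all genes tested and a threshold of 0.05. SE is the log2 fold change over the square root of F. CPM values use the TMM factors. The procedure was tested on simulated counts in which every gene had the same spread and no library stood apart. That test does not cover the unevenness of the ADR libraries. Intervals and floors cover counting error only.

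Genes named were the first 2 symbols of a list, up to 3 members with the smallest p that averaged 1 CPM or more, members called against the direction of their list, the 15 largest rises and falls among separated genes that averaged 1 CPM or more, and up to 5 called genes at 0 in a group. Alternatives tried were scaling by median ratios, every gene with a count, only genes averaging 1 CPM or more, DESeq2 1.42.0, limma 3.58.1 voom with sample quality weights, edgeR's newer quasi-likelihood method, the replicate number as a block, and each library left out in turn. Some genes that this rule names are not reported here.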

Additional observations from a re-analysis of the deposited data

Results flagged for a closer look

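Only saline, with 4 libraries, was large enough to be looked at for a library far from the others. Of 169 sets of 4 saline values, 13 had a gap that passed Dixon's 95% critical value for 4 samples, and chance flags about 1 in 20. That rate does not apply to Il1f6 and Saa1, where every other saline library was at 0 and the gap passes however few the counts.

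In saline replicate 1, Cd3g (0.826 CPM, against 0.345 to 0.382 in the others) and Synpo (111 CPM, against 98 to 99.5) were high, and so was Saa1, at 0.0459 CPM where the others were at 0. Saline replicate 2 was high in Igha, at 14.5 CPM against 4.81 to 5.31. Saline replicate 3 was high in Alas2, at 19.9 CPM against 8.49 to 10.1. Saline replicate 4 was high in Aqp4 (136 CPM, against 93.8 to 98.4) and in Il1f6 (0.0265 CPM, which is 1 count, against 0). It was low in Cd68 (5.65 CPM, against 7.06 to 7.31) and Pecam1 (63.9 CPM, against 67.1 to 67.4).

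Among list levels, given as log2 differences from the saline mean, saline replicate 1 was low for Klotho and vitamin D (-0.419) and for sterol and lipid synthesis (-0.162) and high for Notch (0.073), and saline replicate 2 was low for the podocyte list (-0.091).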

How the results depend on the processing

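No gene called with all 7 libraries had the opposite sign in any alternative in which it was tested, whether or not it was called there. Median-ratio scaling, both other filters and edgeR's newer method kept the counts over all genes and over all list members within 1.5 times. Counts of single lists moved more. With every gene with a count kept, lower calls went from 8 to 4 in the podocyte list, and higher calls from 4 to 2 in parietal epithelium, from 3 to 1 among CDK inhibitors, from 5 to 3 among antioxidant and iron genes and from 2 to 0 in the Notch and the Klotho and vitamin D lists. With genes averaging 1 CPM or more, lower calls in the distal convoluted tubule went from 3 to 1, and with median ratios those in fatty acid oxidation went from 3 to 5. DESeq2 called 2876 genes higher and 2300 lower, and limma voom with sample quality weights, which gave ADR replicate 1 a weight of 0.181, called 4428 higher and 4070 lower (8498 in all). Rises made up 64.1% of the calls as reported, 55.6% with DESeq2 and 52.1% with voom. In the gene lists, 323 calls (250 higher, 73 lower) became 490 with voom, of which 189 were lower, and DESeq2 called 124 lower.

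With 1 library left out, the genes called ranged from 926 to 8348, those higher from 822 to 4364 and those lower from 104 to 3984. Calls in the gene lists ranged from 176 to 496, and those lower from 5 to 191. Each lowest value came without ADR replicate 2 and each highest without ADR replicate 1. The cause was not tested.

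With the replicate number as a block, which leaves saline replicate 4 without a partner, edgeR called 1 gene higher (Timp1) and 0 lower, 1 among list members, while 5596 genes had an unadjusted p under 0.05. The block also leaves fewer residual degrees of freedom than the 5 of the main fit. How much of the loss of calls comes from this was not tested. Whether the numbers pair mice is not stated. Deviations of same-numbered libraries correlated at 0.026, 0.084 and 0.222, and those of differently numbered libraries at -0.266 to 0.26. With so few libraries these values cannot decide it.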

Other observations

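Saline replicates 1 and 2 lay above saline replicates 3 and 4 in several leukocyte lists. In log2 units from the saline mean, the macrophage list was at 0.20, 0.14, -0.19 and -0.16 in saline replicates 1 to 4, and the MHC class II list was at 0.33, 0.13, -0.17 and -0.29. These differences are small beside those of the ADR libraries, which lay at 1.25, 2.68 and 2.55 for macrophages.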
